A study of Mus musculus with 230 samples.

Results

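The response of the dorsal striatum (caudate putamen, CPu) to an injection of cocaine was measured in mice with a history of cocaine self-administration. It rests on 13 of the 230 RNA sequencing libraries of the series, which covers 6 brain regions. They were chosen by their labels: dorsal striatum, cocaine as the self-administered drug, and an injection given after 30 d of withdrawal. In 7 libraries the injection was cocaine (CC) and in 6 it was saline (CS), and tissue was taken 1 h after it. All mice were male C57BL/6J, the injection was single and intraperitoneal, and it was given in the setting of the earlier self-administration. Every mouse of both groups had therefore taken cocaine before, and all had been handled and injected shortly before tissue collection; no group of this time point went without an injection.

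Other libraries of the same region served as references. Mice that had self-administered saline received cocaine (SC, 6 libraries) or saline (SS, 7 libraries) at the same time point. Mice that had self-administered cocaine were also sampled at 24 h of withdrawal, with no injection (C24, 8 libraries). Mice that had self-administered saline were sampled in the same way at 24 h (S24, 8 libraries). The S24 libraries were part of the joint fit of the region but of no comparison. CS and C24 differ in the injection, in the return to the self-administration setting that went with it, and in the length of withdrawal. The title numbers of CS and C24 also fall in separate ranges. The parts of these differences in any contrast of CS or CC with C24 cannot be told apart. Title numbers were read as mouse numbers, which the labels do not state, so the p-values measure the spread between libraries, which may in part be technical.

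Cocaine blocks the dopamine transporter and raises extracellular dopamine. In the dorsal striatum, dopamine acts on projection neurons of the direct pathway, which carry the D1 receptor and dynorphin, and of the indirect pathway, which carry the D2 receptor and enkephalin. D1 receptor signalling through cyclic AMP and MAP kinase activates factors such as CREB and SRF, and these switch on immediate early genes within minutes. Immediate early transcription factors of the Fos, Egr and Nr4a families are followed by effectors at the synapse, such as Arc and Homer1, and by phosphatases and kinases that shut the signal off, such as Dusp1 and Sik1. Injection and handling also induce these genes, which is why saline-injected mice are the reference here.

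As background, 4 promoter windows of 250 bases before a RefSeq start are printed for members of lists that the results return to. The sequences are from RefSeq (GRCm38.p6), 5′ to 3′ on the gene's strand. RefSeq starts can differ from the GENCODE loci given further on: the Arl5b window lies inside its GENCODE locus, and the Nr4a3 and Fosb windows overlap the start of theirs. Nr4a3 (chr4:48045055-48045304, plus strand) encodes an orphan nuclear receptor, Fosb (chr7:19310046-19310295, minus strand) a Fos family factor, and Arl5b (chr2:15055070-15055319, plus strand) a small GTPase of the ARF-like family. In these 3 the capitals mark TGACG, or its complement CGTCA, the core of the cyclic AMP response element (CRE). Hspe1 (chr1:55087898-55088147, plus strand) encodes a mitochondrial chaperonin, and the capitals mark matches to the heat shock element.
Nr4a3: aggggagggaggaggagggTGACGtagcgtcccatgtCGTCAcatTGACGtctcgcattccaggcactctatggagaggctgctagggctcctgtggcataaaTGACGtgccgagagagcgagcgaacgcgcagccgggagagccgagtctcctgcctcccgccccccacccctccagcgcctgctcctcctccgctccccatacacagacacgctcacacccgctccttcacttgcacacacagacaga
Fosb: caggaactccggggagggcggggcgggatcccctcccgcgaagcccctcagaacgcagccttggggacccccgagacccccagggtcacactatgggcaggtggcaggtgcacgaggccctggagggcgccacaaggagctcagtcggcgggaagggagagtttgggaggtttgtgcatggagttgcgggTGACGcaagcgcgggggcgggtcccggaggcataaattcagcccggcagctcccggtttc
Arl5b: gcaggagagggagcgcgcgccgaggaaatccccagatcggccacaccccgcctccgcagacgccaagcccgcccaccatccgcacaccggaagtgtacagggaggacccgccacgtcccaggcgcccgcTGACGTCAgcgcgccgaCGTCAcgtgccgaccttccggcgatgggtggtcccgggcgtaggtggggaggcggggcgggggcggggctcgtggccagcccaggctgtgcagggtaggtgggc
Hspe1: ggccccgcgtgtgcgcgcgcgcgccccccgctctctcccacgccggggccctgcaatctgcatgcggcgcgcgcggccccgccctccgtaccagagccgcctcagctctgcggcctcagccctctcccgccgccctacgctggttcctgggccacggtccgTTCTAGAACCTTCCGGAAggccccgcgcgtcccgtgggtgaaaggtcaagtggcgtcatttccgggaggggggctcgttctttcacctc

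The full palindrome TGACGTCA stood in the Arl5b window, while the Nr4a3 window held 4 cores and the Fosb window 1 core without the palindrome. Among all 32851 windows of the table, 1.55% held the palindrome and 17.8% held the core on either strand (the palindrome contains the core). Of 38 windows for 28 immediate early transcription factors matched, 2 held the palindrome (5.26%) and 28 the core (73.7%). Of 45 windows for 28 activity-induced effectors, 7 held the palindrome (15.6%): those of Arl4d, Arl5b, Errfi1, Pcsk1, Plk2, Ppp1r15a and Zdbf2. The core stood in 15 of these 45 windows (33.3%) and in 11 of 30 windows of heat shock genes (36.7%), so it did not set the effectors apart from that list. The heat shock element was searched as GAANNTTCNNGAA on both strands; it stood in 0.466% of all windows and in 2 of 30 windows of heat shock genes, those of Hspd1 and Hspe1, which are divergent neighbours and share the printed site. A match describes the letters of a window and shows no binding.

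Total counts ran from 20693579 to 27550712 per CC library and from 21800163 to 33037225 per CS library. All libraries carried striatal transcripts, but 2 CS libraries stood apart from the rest of their group. Cpu-151 had 148 CPM (counts scaled to library size with TMM factors) of Slc17a7, the vesicular glutamate transporter of cortical neurons, against 4.29 to 7.41 CPM in the other CS libraries, and it had the lowest CS values of Drd2 (140 CPM) and of Rgs9 (504 CPM), a regulator enriched in projection neurons. The 10 cortical markers summed to 304 CPM in Cpu-151, to at most 160.7 CPM in the other CS libraries and to 118 to 158 CPM in the CC libraries. Cpu-072 held 36.2 CPM of the pseudogene Gm11410, against at most 0.390 CPM in the other CS libraries, and 2.27 CPM of the pseudogene Gm20594, which had none in the other CS libraries. The counts of genes called and the list medians between CC and CS are therefore given with and without these 2 libraries, as are the single genes whose value moved most. In tissue pieces, fewer cells of a type and less RNA per cell cannot be told apart.

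**Figure D1:**
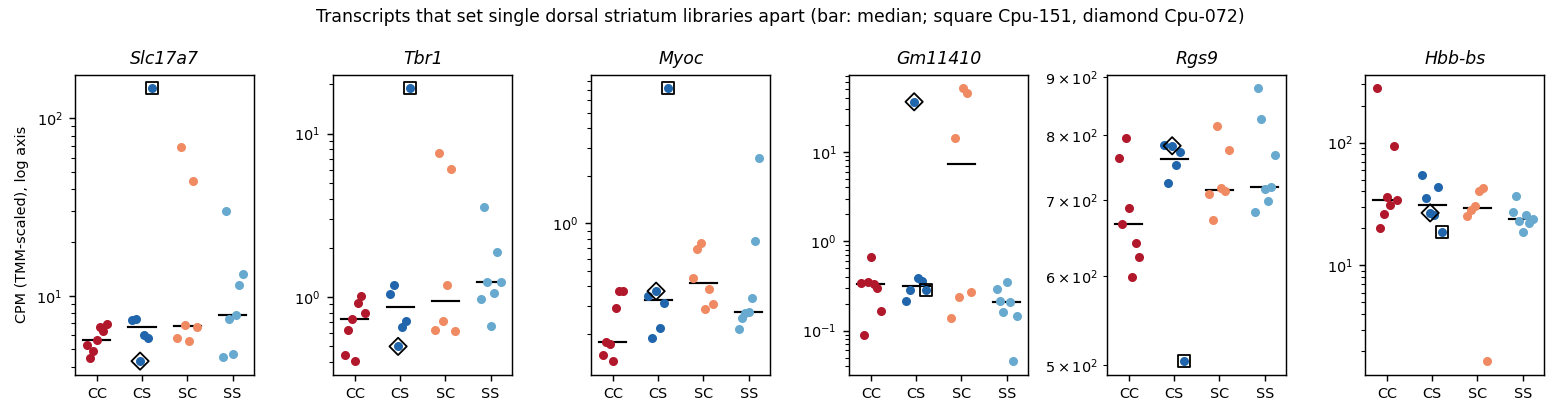
CPM (log axis) of 6 transcripts in each dorsal striatum library at 30 d, by group, with the median as a bar; the square is Cpu-151 and the diamond Cpu-072. Slc17a7 reached 148 CPM in Cpu-151, Gm11410 reached 36.2 CPM in Cpu-072, and Hbb-bs reached 277 CPM in 1 CC library.

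No gene passed the test between cocaine and saline injection. Of 16609 genes tested with edgeR's quasi-likelihood test, 0 (0.0%) had a Benjamini-Hochberg adjusted p under 0.05, and the smallest adjusted p was 0.99993. At an unadjusted p under 0.05 there were 341 genes, against 830.5 if p-values were uniform; 152 (0.915%) were higher and 189 (1.14%) lower in CC. DESeq2 and limma also called 0 genes. At an unadjusted p under 0.05 they had 446 of 29995 genes (DESeq2, with no filter on low counts) and 329 of 16609 (limma). Without Cpu-151 and Cpu-072 edgeR again called 0 genes, with 222 at an unadjusted p under 0.05.

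The intervals show how large a response these libraries leave room for. Standard errors and intervals use the spread in all 42 dorsal striatum libraries of the fit, those at 24 h included. They are therefore not the spread of the CC and CS libraries alone. The median standard error of a log2 fold change was 0.10, and for 13725 genes (82.6%) the 95% interval lay within a 1.5-fold change in either direction. For 15941 genes (96.0%) it lay within a 2-fold change (1 log2 unit). The median size of the log2 fold change, whatever its sign, was 0.056 between CC and CS. Between CS and C24, in the same region and fit, it was 0.15, and 3762 genes passed, of which 1937 were higher in CS (11.7% of all tested). With Cpu-151 and Cpu-072 left out, 2644 genes passed. Cortical markers varied within C24 as well, with sums of 135 to 270 CPM. Their median was -0.17 in CS against C24 with all libraries, and -2.25 without Cpu-151 and Cpu-072, with 2 of 9 called lower. In CC against C24 with all libraries it was -2.25, with 6 of 9 called lower. The part of this uneven content in the counts against C24 was not tested.

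The immediate early transcription factors lay slightly above CS in CC mice. Of 38 members tested, 32 had a positive log2 fold change, with a median of 0.09, beside 53.5% of all genes and a median of 0.0063; 0 of 38 passed, and 3 had an unadjusted p under 0.05. Without Cpu-151 and Cpu-072, 30 of 38 were positive with a median of 0.12. The share and median over all genes in that fit are not given here or below, so its counts have no such reference. The summed level of the 38 factors ran from 2567 to 3445 CPM in CC (median 2821) and from 2231 to 2856 CPM in CS (median 2549), so that the groups overlapped.

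Nr4a3 (chr4:48045153-48086447, plus strand, GENCODE M21 on GRCm38) had the largest positive value among these factors. The lowest, median and highest CC libraries had 86.6, 124.95 and 202 CPM, and those of CS had 60.8, 82.6 and 112 CPM. All 7 CC libraries exceeded the CS median, but the lowest CC library lay below the 2 highest of CS. The log2 fold change was 0.67 ± 0.22 (SE; 95% interval 0.22 to 1.12; unadjusted p = 0.0049, edgeR adjusted p = 0.99993). It was 0.57 without Cpu-151 and Cpu-072 (unadjusted p = 0.035).

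Fosb, which also gives the stable ΔFosB protein known to build up in striatum with repeated cocaine, had 53.9, 63.3 and 85.4 CPM in CC as lowest, median and highest values, and 42.6, 54.7 and 60.5 CPM in CS. Its log2 fold change was 0.34 ± 0.13 (95% interval 0.087 to 0.60; unadjusted p = 0.010). The groups overlapped, with 6 of 7 CC libraries above the CS median. Fosl2, which encodes the Fos family factor Fra-2, had 80.1, 119 and 185.2 CPM in CC and 62.2, 88.5 and 114 CPM in CS, a log2 fold change of 0.49 ± 0.21 (unadjusted p = 0.026). Without the 2 CS libraries the value was 0.31 for Fosb and 0.39 for Fosl2.

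Fos, the factor most often used to mark activated neurons, had 30.6, 40.8 and 57.3 CPM in CC and 29.4, 32.3 and 45.4 CPM in CS. Its log2 fold change was 0.20 ± 0.30, and the 95% interval of -0.40 to 0.80 held 0. Egr2, an early growth response factor, had 44.6, 68.6 and 100 CPM against 37.5, 47.3 and 72.3 CPM (0.45 ± 0.25, unadjusted p = 0.078), and its value was 0.30 without the 2 CS libraries. Junb, a partner of Fos proteins, had a log2 fold change of 0.35 ± 0.19, which was 0.18 without Cpu-151 and Cpu-072. The Junb locus overlaps Prdx2 on the other strand, and the strand setting of the counting is not given in the sources used here. Egr4 stood at 0.27 and Nr4a1 at 0.28 with all libraries, and at 0.0063 and 0.14 without the 2 CS libraries. Npas4, a factor specific to active neurons, had a negative value. CC ran from 36.1 to 70.2 CPM around a median of 56.3, CS from 29.1 to 73.6 CPM around 58.7, and the log2 fold change was -0.12 ± 0.27.

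A single CC library, Cpu-031, had the highest CC value of Nr4a3, Fosb, Fosl2, Egr2, Arl5b, Sik1, Fos and Arc. Without it the log2 fold change was 0.54 for Nr4a3, 0.27 for Fosb, 0.36 for Fosl2 and 0.32 for Egr2. Fos went from 0.20 to 0.094 and Arc from 0.12 to 0.038 without that library, and the median of the 38 factors was 0.093.

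**Figure D2:**
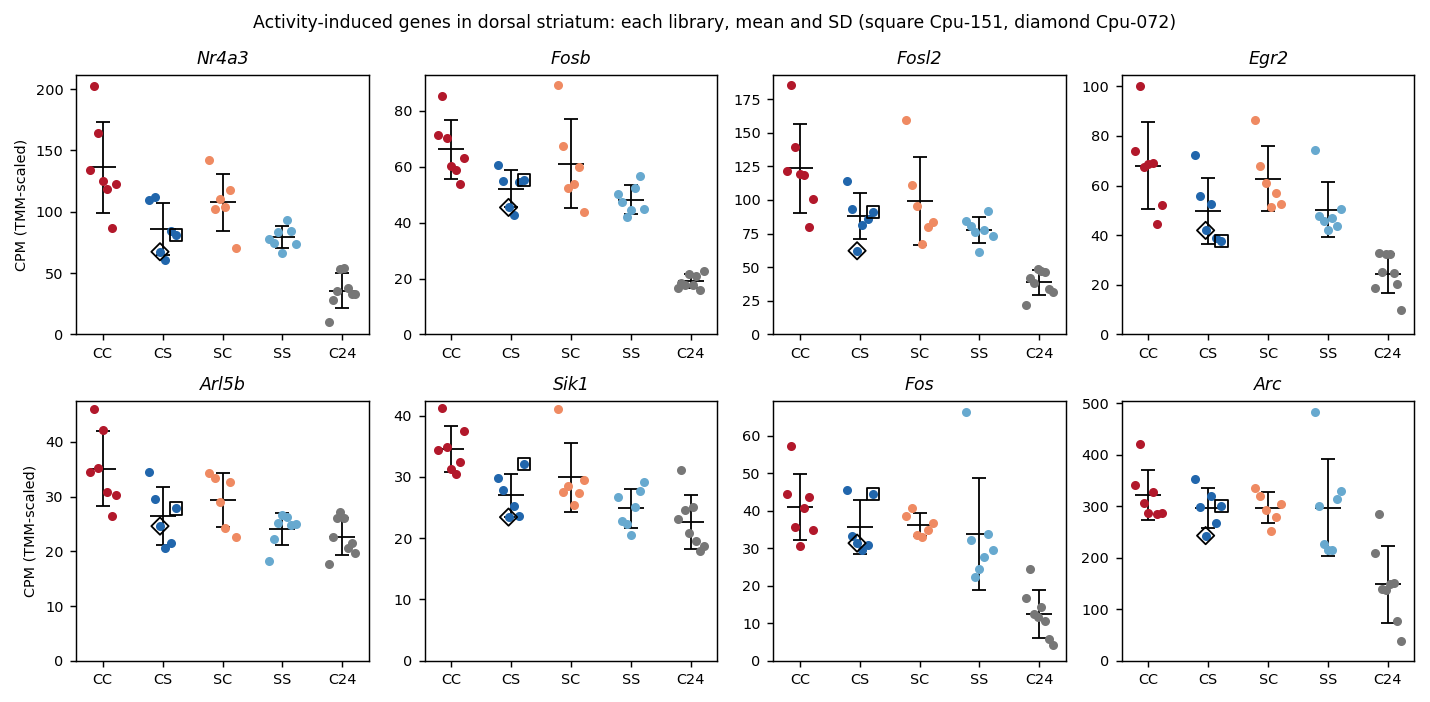
CPM of 8 activity-induced genes in each dorsal striatum library, by group, with mean and SD; the square is Cpu-151 and the diamond Cpu-072. CC and CS overlap for all 8 genes, while the C24 libraries, which had no injection, all lie below every CC, CS, SC and SS library for Nr4a3, Fosb and Fosl2.

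Many immediate early factors were above their 24 h level in saline-injected mice already. Of the 38, 24 were higher in CS than in C24 (edgeR adjusted p under 0.05, against 11.7% of all genes), and 27 were higher in CC than in C24 (against 13.7% of all genes); the comparisons share the C24 libraries. Of the 38, 20 were higher in CS than in C24 when Cpu-151 and Cpu-072 were left out (against 1309 of 16822 genes). Fosb exceeded C24 by 1.46 log2 units in CS (adjusted p = 2.1e-10), Nr4a3 by 1.26 (4.6e-05) and Fos by 1.52 (0.00023). In C24 the highest library had 22.8 CPM of Fosb and 54.1 CPM of Nr4a3, below the lowest CS library for each. For the same genes the difference between cocaine and saline injection was 0.34, 0.67 and 0.20.

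Activity-induced effectors gave a similar count. Of 37 tested, 27 had a positive log2 fold change with a median of 0.079, which was 0.12 without Cpu-151 and Cpu-072; 0 passed, 6 had an unadjusted p under 0.05 on the higher side and 2 on the lower. Arl5b (chr2:15049395-15082456, plus strand), whose RefSeq promoter window is printed above, had the smallest unadjusted p of any gene higher in CC. The lowest, median and highest libraries had 26.5, 34.5 and 46.1 CPM in CC and 20.6, 26.2 and 34.4 CPM in CS. All 7 CC libraries exceeded the CS median, and the ranges overlapped. The log2 fold change was 0.41 ± 0.12 (95% interval 0.17 to 0.65; unadjusted p = 0.0014), and 0.40 without the 2 CS libraries. Its locus overlaps Nsun6 on the other strand.

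Other effectors had values of similar size. Coq10b, which encodes a mitochondrial coenzyme Q binding protein, had 39.9, 41.8 and 51.7 CPM in CC against 32.0, 38.7 and 40.0 CPM in CS, a difference of 0.24 ± 0.09 (unadjusted p = 0.012). Tiparp, a poly(ADP-ribose) polymerase, stood at 0.32 ± 0.15 and Gpr3, an orphan receptor that raises cyclic AMP, at 0.36 ± 0.17. Plk3, a polo-like kinase, stood at 0.29 ± 0.13 and Midn, which encodes midnolin, at 0.29 ± 0.13. Arc, an effector of synaptic plasticity, had 286, 307 and 421 CPM in CC and 243, 299 and 353 CPM in CS. Its difference was 0.12 ± 0.31, or 0.051 without the 2 CS libraries, and with all libraries it was below its standard error. Homer1, a postsynaptic scaffold gene, stood at 0.20 ± 0.12.

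The 2 effectors lower in CC at an unadjusted p under 0.05 changed sign when Cpu-151 and Cpu-072 were left out. Bdnf, the gene of a growth factor that cortical neurons supply to the striatum, had 5.22 CPM in Cpu-151 and 0.197 to 0.404 CPM in the other CS libraries; the log2 fold change was -1.64 with that library and 0.30 without it. Nrn1, which encodes neuritin, reached 14.1 CPM in CS around a median of 1.07 CPM, with a value of -1.31 that became 0.28 without Cpu-151 and Cpu-072.

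Among 22 feedback phosphatases and kinases, 17 were positive with a median of 0.083, 0 passed and 2 had an unadjusted p under 0.05. Without Cpu-151 and Cpu-072 the count was 11 of 22 and the median 0.040. Sik1, a salt-inducible kinase that restrains CREB-driven transcription, had 30.6, 34.4 and 41.2 CPM in CC and 23.4, 26.6 and 32.1 CPM in CS. Only the highest CS library, Cpu-151, lay above any CC library, and the log2 fold change was 0.36 ± 0.13 (95% interval 0.095 to 0.62; unadjusted p = 0.0086), or 0.37 without the 2 CS libraries. Dusp5, a nuclear phosphatase of ERK, stood at 0.26 ± 0.12 and Dusp1, a phosphatase of MAP kinases, at 0.19 ± 0.16, which was 0.088 without the 2 CS libraries.

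Mice without a cocaine history gave the same kind of counts for the same drug. SC against SS had 0 of 16609 genes called (0.0%) and 305 at an unadjusted p under 0.05; DESeq2 called 1 and limma 0. Of the 38 immediate early factors, 30 were positive in SC against SS with a median of 0.087, and 26 were positive in both histories. The median over all genes was -0.0049 in SC against SS. Of the 37 effectors 29 were positive, with a median of 0.086, and 22 in both histories. The feedback genes had 10 of 22 positive with a median of -0.018. Fosb stood at 0.34 in both histories, and Nr4a3 at 0.67 after cocaine and 0.44 after saline. Cortical markers were uneven in these groups too, with sums of 132 to 229 CPM in SC and 134 to 165 CPM in SS. Their median was 0.96 in SC against SS and -3.00 in the difference between histories. Without the libraries over 20 CPM of Slc17a7, chosen after seeing the data, SC against SS again had 0 genes called.

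The test of the difference between histories called 1 of 16609 genes (0.00602%), the pseudogene Gm11410, at -10.77 log2 units (edgeR adjusted p = 0.0033); 253 genes had an unadjusted p under 0.05. Gm11410 (chr4:80003989-80005131) had 36.2 CPM in Cpu-072 and 14.3, 51.4 and 45.0 CPM in 3 SC libraries, and at most 0.674 CPM in every other CC, CS, SC and SS library. The same 4 libraries held 2.19 to 2.92 CPM of Gm20594. The call was absent without Cpu-072, without those 4 libraries, and in limma with all libraries. For the activity genes the interaction gave unadjusted p = 0.48 for Nr4a3, 0.98 for Fosb and 0.63 for Sik1, so no response could be called particular to a cocaine history.

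**Figure D3:**
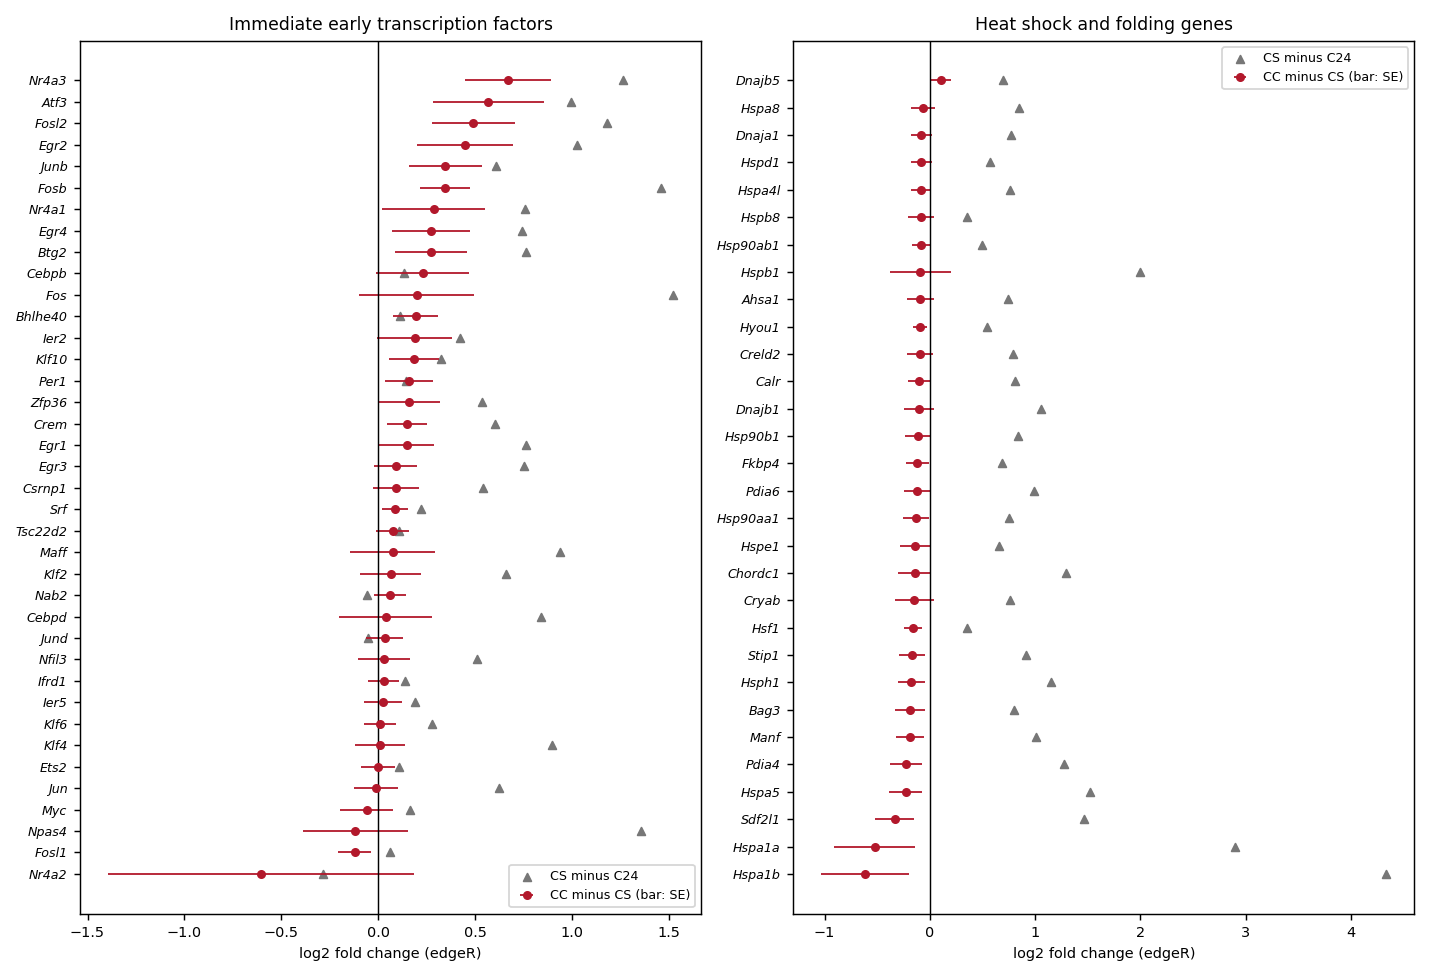
Log2 fold change of each tested member in CC minus CS (circle, with SE) and CS minus C24 (triangle) for 38 immediate early transcription factors and 30 heat shock and folding genes. In CC minus CS, 32 of 38 factors lie right of 0 and 29 of 30 heat shock genes lie left of it, none past the test.

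Heat shock and folding genes lay on the other side. Of 30 tested, 29 had a negative log2 fold change with a median of -0.12; 0 passed and 0 had an unadjusted p under 0.05. Without Cpu-151 and Cpu-072 the median was -0.074 with 28 negative. Hspa1b, an inducible Hsp70 gene, had 3.10, 9.37 and 30.0 CPM in CC and 7.30, 13.3 and 34.5 CPM in CS, a log2 fold change of -0.61 ± 0.42. Hspa1a is a near-identical copy whose reads may be split with it, and it stood at -0.53 ± 0.38. Hspa5, the main chaperone of the endoplasmic reticulum, had 287, 424 and 735 CPM in CC and 388, 506 and 680 CPM in CS (-0.23 ± 0.16, and -0.14 without the 2 CS libraries). Hsf1, the heat shock transcription factor, had 36.8, 40.5 and 43.5 CPM against 41.1, 45.3 and 48.3 CPM, and at -0.16 ± 0.085 it had the smallest unadjusted p of the list (0.066). Dnajb5, an Hsp40 co-chaperone, was the only positive member at 0.10 ± 0.10.

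The same list stood 30 of 30 higher in CS than in C24 by the test (against 11.7% of all genes), with a median of 0.80 log2 units. In CC 28 of 30 were higher than in C24 (against 13.7% of all genes). Leaving out Cpu-151 and Cpu-072 gave 29 of 30 higher in CS (against 1309 of 16822 genes), with a median of 0.74. In SC against SS 29 of 30 were negative with a median of -0.17, and the same 29 members were negative in both histories. The nucleus accumbens of the CC and CS mice, fitted with limma, had 30 of 30 negative with a median of -0.16. Summed over the list, CC libraries ran from 6426 to 10164 CPM (median 7495) and CS libraries from 6625 to 9502 CPM (median 8299). The highest CS sum was that of Cpu-151. Members of a list are not independent of each other.

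Glucocorticoid-responsive genes, which track the stress hormone response, had 6 of 22 positive with a median of -0.036. Without the 2 CS libraries 11 of 22 were positive, with a median of -0.0063. In SC against SS the list went the other way, with 15 of 22 positive and a median of 0.094. Fkbp5, a co-chaperone of the glucocorticoid receptor, stood at -0.019 ± 0.10, with 56.6 to 85.6 CPM in CC and 58.9 to 78.2 CPM in CS. Per1, a clock gene that both glucocorticoids and neuronal activity induce, stood at 0.16 ± 0.13, at 0.087 without Cpu-031 and at 0.10 without the 2 CS libraries. The list had 11 of 22 members higher in CS than in C24 (against 11.7% of all genes). Without the 2 CS libraries it had 7 of 22 (against 1309 of 16822 genes). The 19 circadian clock genes had a median of 0.018, which was -0.022 without the 2 CS libraries, and 0 called.

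Genes of the projection neurons were near equal in CC and CS. Drd1, the D1 receptor gene, had 352, 421 and 434 CPM in CC and 312, 402 and 451 CPM in CS, with a log2 fold change of 0.022 ± 0.062 (95% interval -0.10 to 0.15). Drd2, the D2 receptor gene, had 204.97, 214.4 and 243 CPM against 140, 234 and 247 CPM, with 0.0075 ± 0.083 (interval -0.16 to 0.18); the 140 CPM are Cpu-151, and without it the value was -0.096. Pdyn, the dynorphin precursor, stood at -0.050 ± 0.15, Penk, the enkephalin precursor, at 0.043 ± 0.083 and Tac1, the substance P precursor, at 0.0011 ± 0.073. Each of these intervals excluded a 1.5-fold change in either direction.

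The 9 direct pathway genes had a median of -0.0043, the 8 indirect pathway genes 0.0071 and the 24 shared projection neuron genes 0.037. Without Cpu-151 and Cpu-072 the medians were -0.068, -0.034 and -0.084, and the number of positive members went from 4 to 1 of 9, from 5 to 2 of 8 and from 18 to 2 of 24. In SC against SS the shared genes had 3 of 24 positive with a median of -0.053. Rgs9, one of these, had 598, 667 and 795 CPM in CC and 504, 762 and 783 CPM in CS, with a value of -0.077 ± 0.086 and of -0.16 without the 2 libraries (unadjusted p = 0.066). The medians of the indirect and shared lists thus changed sign without 2 of the 6 saline libraries, that of the direct list was negative both ways, and 0 members passed either way.

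Receptors and neuromodulator genes had medians within 0.05 of 0 on the log2 scale for ionotropic glutamate receptors (0.013 over 18), GABA-A receptor subunits (0.027 over 14) and opioid peptides and receptors (-0.0038 over 8). The 7 metabotropic glutamate receptors had 0.050 and the 11 dopamine system genes 0.032, with 0 called in each of these 5 lists. Leaving out the 2 CS libraries gave medians of 0.022, 0.045 and 0.029 for the first 3 lists, of 0.0014 for the metabotropic receptors and of -0.018 for the dopamine system genes. Gabra5, the alpha5 subunit gene, had 23.9, 25.99 and 30.0 CPM in CC and 19.4, 24.8 and 27.7 CPM in CS, a difference of 0.14 ± 0.077 that was 0.23 without the 2 CS libraries (unadjusted p = 0.0081). Chromatin enzymes were as close: the 17 deacetylases and sirtuins had a median of -0.0096 and the 11 DNA methylation and Tet genes one of 0.0026, which were -0.020 and -0.0071 without the 2 CS libraries. Sirt6, a nuclear deacetylase, had 8.27 to 9.87 CPM in CC and 8.74 to 10.8 CPM in CS (-0.15 ± 0.074). The 61 subunits of oxidative phosphorylation had a median of 0.015, and the 28 interferon-induced genes 0.011 with 14 of 28 positive. Both medians were negative without the 2 CS libraries, at -0.018 and -0.047.

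**Figure D4:**
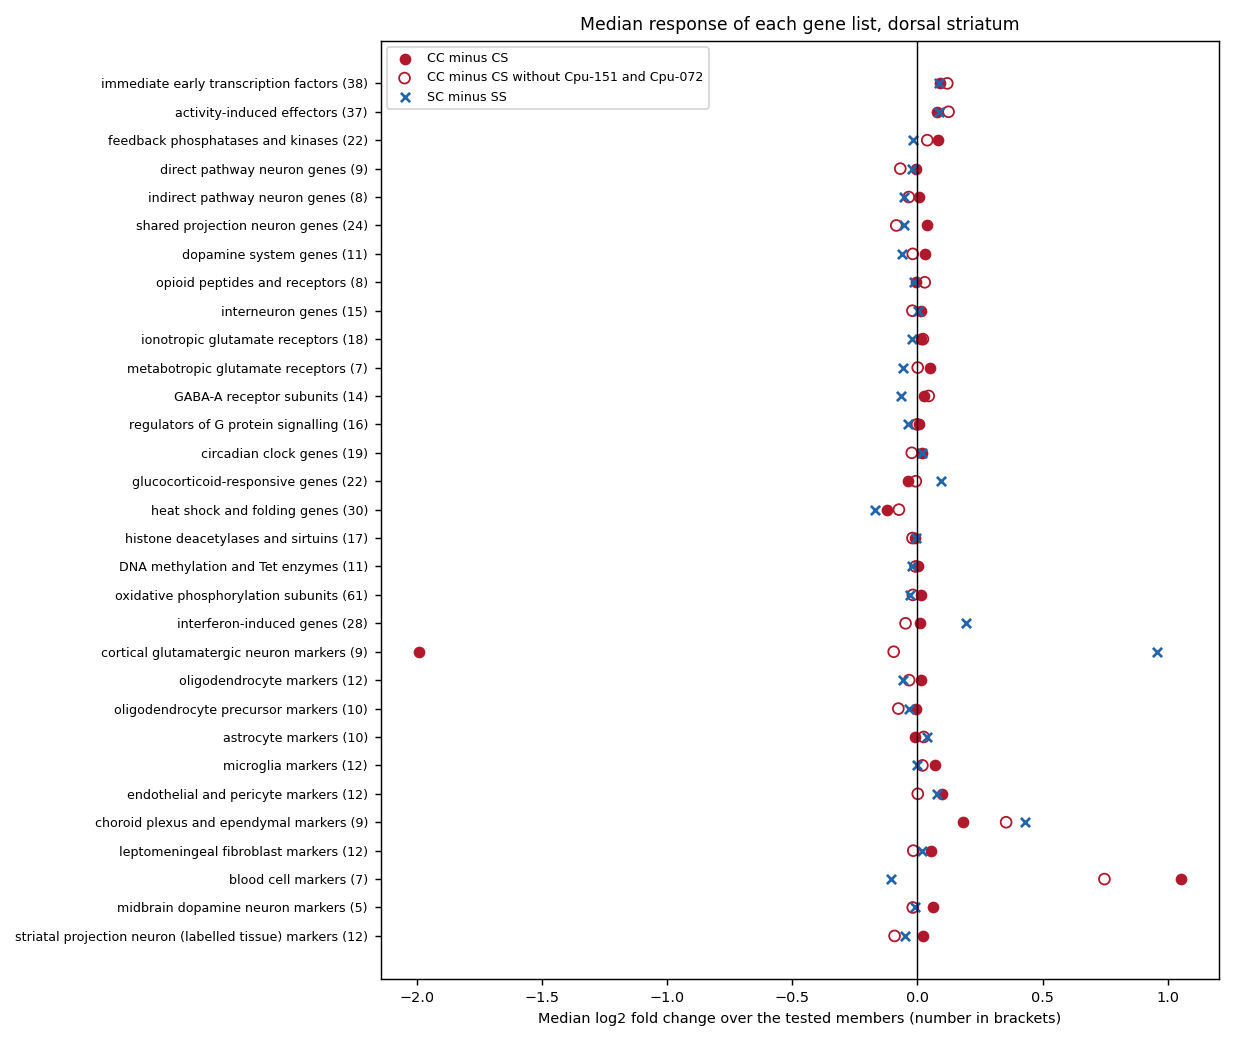
Median log2 fold change over the tested members of each gene and marker list for CC minus CS with all libraries (filled circle), without Cpu-151 and Cpu-072 (open circle) and for SC minus SS (cross). Cortical markers moved from -1.99 to -0.095 without the 2 libraries, and blood cell markers stood at 1.05 and 0.75.

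Marker genes of other cell types moved with single libraries. All 9 cortical glutamatergic markers tested were lower in CC with a median of -1.99, 7 of them at an unadjusted p under 0.05, and without Cpu-151 and Cpu-072 the median was -0.095. With all libraries limma gave a median of -0.74. All 7 blood cell markers tested were higher in CC with a median of 1.05, and 0.25 without Cpu-012; Hbb-bs, a beta globin gene, had 19.97, 34.0 and 277 CPM in CC and 18.7, 30.9 and 54.7 CPM in CS. The blood list summed to 51.0 to 598 CPM in CC and to 48.1 to 123 CPM in CS. All 12 endothelial and pericyte markers were positive with a median of 0.099, which was 0.0017 with 6 of 12 positive once the 2 CS libraries were left out. Oligodendrocyte markers had a median of 0.016, astrocyte markers -0.0078 and microglia markers 0.070. Without the 2 CS libraries these medians were -0.033, 0.025 and 0.020, and the positive microglia markers went from 11 to 7 of 12. Of the midbrain dopamine neuron markers Lmx1a was at 0 in every library. The part of these transcripts in the levels of the activity genes was not tested.

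Beyond the lists, the genes with the smallest p higher in CC were mostly expressed at low levels. Tmem154 had 0.753 to 1.48 CPM in CC and 0.661 to 1.04 CPM in CS, and Serpine3, which overlaps Ints6 on the other strand, had 0.541 to 1.11 CPM against 0.157 to 0.605 CPM. Zfp948, a zinc finger gene, had 17.8, 22.02 and 25.0 CPM in CC and 15.3, 17.7 and 19.7 CPM in CS (0.31 ± 0.10, unadjusted p = 0.0049). Pycard, the inflammasome adaptor ASC, stood at 0.47 ± 0.17 on 1.26 to 2.60 CPM in CC and 0.897 to 1.73 CPM in CS. With Arl5b, Nr4a3, Sik1, Ly6g6d and 2 predicted genes they make up the 10 genes of smallest p on that side.

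On the lower side, Srpx2, a secreted sushi repeat protein linked to synapse formation, had 0.223, 0.302 and 0.476 CPM in CC and 0.283, 0.625 and 0.954 CPM in CS. The log2 fold change was -0.89 ± 0.25 (unadjusted p = 0.00098) and -1.05 without Cpu-151 and Cpu-072; all 7 CC libraries lay below the CS median. Pik3cd, the catalytic delta subunit of PI3 kinase, had 19.7, 20.8 and 23.3 CPM in CC and 21.6, 24.0 and 26.4 CPM in CS (-0.17 ± 0.057), and all 7 CC libraries again lay below the CS median. Gm11410 and Myoc, the myocilin gene, had values of -4.33 and -2.53 that each came from 1 CS library, Cpu-072 and Cpu-151, and stood at 0.024 and -0.14 without them. Ciz1, Ccdc130, Gmip, Pdf, Ddx41 and Aspg fill the list of 10, between -0.19 and -1.26.

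In 3 genes (0.0181%) every CC library lay above every CS library: Gm15518, Ly6g6d and Ccdc148. In 4 genes (0.0241%) every CC library lay below: Xab2, Washc2, Lat and A230107N01Rik. These names were chosen after their values were seen, and the number of genes that would separate by chance was not computed. Gm15518 and Ly6g6d were expressed at low levels, with CC medians of 0.485 and 0.344 CPM. Xab2, a splicing factor that also takes part in DNA repair, had 37.1, 37.9 and 39.4 CPM in CC and 40.4, 41.5 and 43.1 CPM in CS, a log2 fold change of -0.13 ± 0.058. Washc2, a subunit of the WASH complex on endosomes, had 82.3, 88.6 and 90.4 CPM against 91.1, 91.7 and 94.7 CPM (-0.079 ± 0.038). Both differences were narrow and just free of overlap. Their unadjusted p (edgeR) were 0.036 for Xab2 and 0.042 for Washc2, and 0.067 and 0.054 without Cpu-151 and Cpu-072.

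The nucleus accumbens, the ventral part of the striatum, was compared for the same groups with 7 CC and 5 CS libraries. There 0 of 16551 genes were called (0.0%) by limma, with 488 at an unadjusted p under 0.05. The difference between the responses of the 2 regions also called 0 of 16551 genes (0.0%), with 158 at an unadjusted p under 0.05. Immediate early factors had 12 of 38 positive in the accumbens with a median of -0.085, against 32 of 38 and 0.09 in the dorsal striatum. The accumbens values are from limma in the fit of both regions, and those of the dorsal striatum from the edgeR fit of that region alone. In a fit of both regions without Cpu-151, Cpu-072 and NAc-151, which carries the number of Cpu-151, 20 of 38 were positive in the accumbens with a median of 0.019. The regional difference had a median of 0.099 over the 38 factors in that fit, against 0.17 with all libraries. With all libraries, Nr4a3 stood at 0.084 in the accumbens, Fosb at -0.057, Fosl2 at -0.092 and Sik1 at 0.043. The regional difference, also with all libraries, was 0.57 ± 0.30 for Nr4a3 and 0.39 ± 0.22 for Fosb. It was 0.56 ± 0.25 for Fosl2 (limma, unadjusted p = 0.037) and 0.31 ± 0.14 for Sik1 (unadjusted p = 0.040), with no adjusted p under the threshold. Cortical markers had a median of -0.88 between CC and CS in the accumbens, and of -0.19 in the fit without those libraries.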

How the data were processed

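The authors deposited raw read counts per Ensembl gene for each library. HTSeq, limma and the build mm10 are named in, and known only per, the submitters' processing notes. Aligner, annotation release and strand setting are not given in the sources used here. Per the labels' protocols, RNA was depleted of ribosomal RNA before library construction, while the molecule field reads polyA RNA. Of 43346 identifiers, 42462 had a symbol in GENCODE M21. All 42 dorsal striatum libraries were fitted together in edgeR 4.0.16 (R 4.3.3; TMM, filterByExpr with minimum count 10 and total 15, robust quasi-likelihood test, Benjamini-Hochberg adjustment over all genes tested, threshold 0.05); CPM are TMM-scaled. The comparison with the nucleus accumbens used limma 3.58.1 (voom). Alternatives were DESeq2 1.42.0, limma, size factors, no filter, the 13 libraries alone, 2 surrogate variables (sva 3.50.0) and libraries left out. The comparisons with C24 were added after the data were seen. Scripts were tested on simulated data. Named genes are those called, the 10 of smallest p in each direction, a set of activity and striatal genes, and the 3 of smallest p per list; list members given beyond these were chosen after their values were seen. The gene lists and members were chosen with earlier results of these data known. Lists are described by counts and medians, with no set test.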

Additional observations from a re-analysis of the deposited data

Results flagged for a closer look

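In 34 of 234 sets of library values examined (each named gene in CC or CS), the highest or lowest library lay apart from the others by Dixon's criterion. Chance alone meets it in about 1 set in 20 for a gene picked without regard to its values. Many of these genes were named for their values in the same libraries, and the sets share libraries. That rate is therefore no measure for the 34 sets. Of the 34, 20 were in Cpu-151. It was highest among CS libraries for Slc17a7 (148 CPM), Tbr1 (18.9), Neurod6 (12.02), Bdnf (5.22), Vip (2.43), Cck (20.2), Grin3a (36.1), Grik4 (12.3), Grm2 (4.13), Gabrg1 (42.7), Rgs16 (13.6), Drd3 (7.04), Pdyn (175.1), Gfap (81.4), Myoc (7.17) and Otx2 (2.43). It was lowest for Drd2 (140 CPM), Ebf1 (10.6), Gpr6 (88.9) and Rgs9 (504).

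Cpu-072 stood apart for Gm11410 (36.2 CPM). Cpu-091, another CS library, was highest for Grm8 (7.89 CPM), Tgtp1 (1.65) and Col1a1 (2.99) and lowest for Hdac6 (36.04), and Cpu-111 was highest for Arrdc2 (40.0 CPM). Among CC libraries, Cpu-012 was highest for Hbb-bs (277 CPM), Hba-a1 (144.3) and Hba-a2 (101), Cpu-031 for Arc (421) and Serpine3 (1.11), Cpu-145 for Sirt6 (9.87) and Cpu-053 for Cx3cr1 (58.5), while Cpu-085 was lowest for Slc5a7 (48.9 CPM).

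The edgeR interaction test of history and injection called Gm11410, at -10.77 log2 units. This pseudogene was high only in the CS library Cpu-072 and in the SC libraries Cpu-083, Cpu-113 and Cpu-125. The call was absent without Cpu-072 and in limma, so it is not given as a response to cocaine.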

How the results depend on the processing

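The count of genes called between CC and CS was 0 under every alternative run and without each of the 13 libraries in turn (range 0 to 0), and an unadjusted p under 0.05 was reached by 222 to 741 genes. The 741 are from the edgeR fit without a filter, over 29995 genes. For SC against SS, DESeq2 called 1 gene, and leaving out each library gave 0 to 2 (1 without Cpu-065 or Cpu-105, 2 without Cpu-161). The interaction called 0 genes in limma, without Cpu-151 and Cpu-072, without the libraries with 1 CPM or more of Gm20594, and without these and the libraries over 20 CPM of Slc17a7 (an alternative chosen after seeing the data); leaving out each library gave 0 to 1, with 0 without Cpu-072. For the regional difference, the mouse number as a replicate block (limma duplicateCorrelation, consensus correlation 0.027) called 0 genes, as did the fit without it. The main fit was set without the pairing, and the block changed no other call. Same-numbered libraries of 12 mice correlated from -0.19 to 0.34, and libraries of different numbers within a group from -0.27 to 0.33.

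The comparisons with C24 and their alternatives were chosen after seeing the data, and their counts stayed within 1.5 times in DESeq2, limma, with DESeq2 size factors, without a filter and without Cpu-151 and Cpu-072.

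No named gene passed between CC and CS under any alternative run. Some log2 fold changes near 0, or set by 1 library, changed sign. Without Cpu-151 they were Drd1 -0.042, Drd2 -0.096, Pdyn 0.069, Penk -0.035, Bdnf 0.30, Drd3 0.13, Grin3a 0.11, Grik4 0.10, Grm2 0.31 and Gfap 0.12. Without Cpu-151 and Cpu-072 they were Gm11410 0.024, Drd1 -0.068, Drd2 -0.12, Pdyn 0.032, Penk -0.045, Tac1 -0.011, Fkbp5 0.0068, Bdnf 0.49, Ebf1 -0.016, Arpp21 -0.016, Bcl11b -0.021, Grin3a 0.12, Grik4 0.078, Grm2 0.15, Dnmt3a -0.0071, Opalin -0.012 and Gfap 0.13. Gm11410 was 0.050 without Cpu-072 and 0.053 without the libraries with Gm20594, where Tac1 was -0.016 and -0.015. Tac1 was also -0.0083 with 2 surrogate variables, -0.0010 in DESeq2, -0.0013 with DESeq2 size factors, -0.0025 in limma and -0.0039 without a filter on low counts, and Grm2 was 0.0024 in limma. Leaving out each library in turn gave sign changes within -4.60 to 0.050 for Gm11410, -0.042 to 0.052 for Drd1, -0.096 to 0.038 for Drd2, -0.11 to 0.069 for Pdyn, -0.035 to 0.080 for Penk, -0.026 to 0.034 for Tac1, -0.081 to 0.017 for Fkbp5, -1.86 to 0.30 for Bdnf, -0.082 to 0.013 for Sfxn1, -0.59 to 0.13 for Drd3, -0.24 to 0.11 for Grin3a, -0.23 to 0.10 for Grik4, -0.52 to 0.31 for Grm2, -0.022 to 0.053 for Dnmt3a, -0.030 to 0.16 for Opalin, -0.081 to 0.016 for Mal, -0.57 to 0.12 for Gfap, -0.15 to 0.83 for Otx2 and -0.84 to 0.037 for Slc6a3. The cause was not tested where no library is named. With 7 against 6 libraries, the median standard error of 0.10 limits what could be called.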
